A study of Sus scrofa with 24 samples.

Results

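Pigs fed an atherogenic diet with grape extract were compared with pigs fed standard chow, in RNA from peripheral blood mononuclear cells. The animals were taken by their diet label, AD-GE for the fatty diet with grape extract and CT for the chow, which gave 4 and 4 of the 24 arrays in the series, each from 1 animal. The atherogenic diet held beef tallow at 5.5%, coconut oil at 10% and cholic acid at 1%, and the extract was given at 1 g per 70 kg of body weight. Both groups were fed for 4 months and held 2 females (animals 1 and 2) and 2 males (animals 3 and 4). The groups differed in fat, cholic acid and extract at once, so these cannot be told apart by AD-GE and CT alone. The atherogenic diet without supplement (AD, 4 animals) is given beside them. It enters the comparison of AD-GE with CT through the estimate of the spread and the choice of probe sets by their mean over all 24 arrays. The other groups, also 4 animals each, received resveratrol (AD-RES), both supplements on the fatty diet (AD-GE-RES) or both on chow (CT-GE-RES), with 18 mg of resveratrol per 70 kg.

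Mononuclear cells of the blood are mainly T cells, B cells, natural killer cells and monocytes, separated from granulocytes and red cells by their density. Monocytes take up modified lipoproteins, sense microbial lipids through Toll-like receptors and become the foam cells of the arterial wall. Cells answer a surplus of cholesterol by lowering sterol synthesis through SREBP2 and by raising efflux through the LXR receptors, and grape polyphenols are studied for their action on inflammatory and antioxidant genes in such cells.

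Values are log2 of the deposited intensity of a probe set, and a difference is AD-GE minus CT. The linear model (limma) used all 24 arrays with sex as a term and was run on 17999 probe sets. A probe set is called, and is said to have risen or fallen, at a Benjamini-Hochberg adjusted p under 0.05. The p-values measure the spread between animals. Of the cell type markers, CD3D, CD3E, CD3G, CD247 and CD8A of T cells, CD79B of B cells and CD163 of monocytes lay between the 88.1 and 98.4 percentile of all probe sets, while CD14 lay at 59.1 and CD4 at 39.3. CD79A, MS4A1, CSF1R, LYZ and CD68 were not named in the annotation used here. In these bulk samples fewer cells of a type and less RNA per cell cannot be told apart.

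The male CT 4 stood apart. Its mean correlation with the other arrays was 0.957, against 0.968 to 0.982 for the other 23. Neutrophil genes averaged 1.43 in it, relative to their mean over all animals, against −0.11 to 0.06 in the other CT animals, and erythroid genes averaged 1.57 against −0.44 to 0.24. The ratio of 3' to 5' signal of control transcripts, which rises as RNA is broken down, was 1.64, 3.33, 3.24 and 4.39 on the log2 scale in CT animals 1 to 4 and 3.34, 2.97, 1.77 and 1.75 in AD-GE. Its difference was −0.69 (exact permutation test, two-sided p = 0.4, with 0.0286 the smallest p that 4 against 4 can give). It ran in opposite directions in the sexes, at 0.67 in females and −2.05 in males. Results over both sexes together are also given without CT 4, or with this ratio in the model, where that turned a sign or ended a call.

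The 3 called genes with a name fell in AD-GE, and 2 further unnamed probe sets fell while 4 unnamed ones rose. These 9 probe sets were 0.050% of those tested, all with a limma adjusted p of 0.0451, and in each of them the 4 AD-GE animals lay outside the range of the 4 CT animals. The groups did not overlap in 1728 probe sets of all those tested, or 9.60%. FKBP15, a protein of the FK506-binding family found on early endosomes, stood at 8.60, 8.37, 8.36 and 8.57 in CT and at 7.75, 7.73, 7.67 and 7.75 in AD-GE. It fell by 0.75 (SE 0.12), which is 1.69-fold, and the AD-GE animals lay closer together than the CT animals.

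CHMP5, a subunit of the ESCRT-III complex that sorts membrane proteins into multivesicular bodies, read 9.10, 8.54, 8.57 and 8.99 in CT and 7.83, 7.90, 7.90 and 8.25 in AD-GE. It fell by 0.83 (SE 0.15), or 1.78-fold. SLC45A3, a membrane transporter of the SLC45 family, read 5.70, 5.75, 5.59 and 5.87 in CT and 4.85, 5.35, 4.65 and 4.95 in AD-GE, and fell by 0.78 (SE 0.14). CHMP5 had 1 probe set. The 3 probe sets of FKBP15 ran from −0.75 to 0.03 and the 3 of SLC45A3 from −0.78 to −0.00, and in each gene 1 of the 3 was lower at an unadjusted p under 0.05. Among the unnamed probe sets, Ssc.30550.1.A1_at fell the furthest, by 1.23 or 2.35-fold, from 7.24, 7.56, 7.62 and 7.39 to 6.10, 5.90, 6.33 and 6.54, and Ssc.4622.1.S1_at fell by 0.88. Ssc.23540.1.A1_at, at 4.19, 4.64, 4.69 and 3.79 in CT and 5.11, 5.54, 5.21 and 5.08 in AD-GE, rose by 0.91. Ssc.29800.1.A1_at rose by 0.73, from 7.58, 7.35, 7.52 and 7.38 to 8.05, 8.05, 8.37 and 8.29.

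All 9 kept their sign in every alternative in which they were tested. As their groups did not overlap, leaving out 1 animal could hardly turn a sign, so this adds little. The calls themselves rested on single animals. No probe set was called without CT 1, CT 2, CT 4, AD-GE 1, AD-GE 3 or AD-GE 4 in turn, 1 was called without AD-GE 2 and 8 without CT 3, of which 5 were shared. With the 3'/5' ratio in the model, or with quantile normalization repeated, 0 were called. With only the 8 arrays of AD-GE and CT in the model 10 were called, of which 1 was among the 9. At an unadjusted p under 0.05 limma found 2635 probe sets (14.6%), 1212 of them higher (6.73%) and 1423 lower (7.91%) in AD-GE. With each array centred on its median these were 936 higher and 1668 lower.

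**Figure D1:**
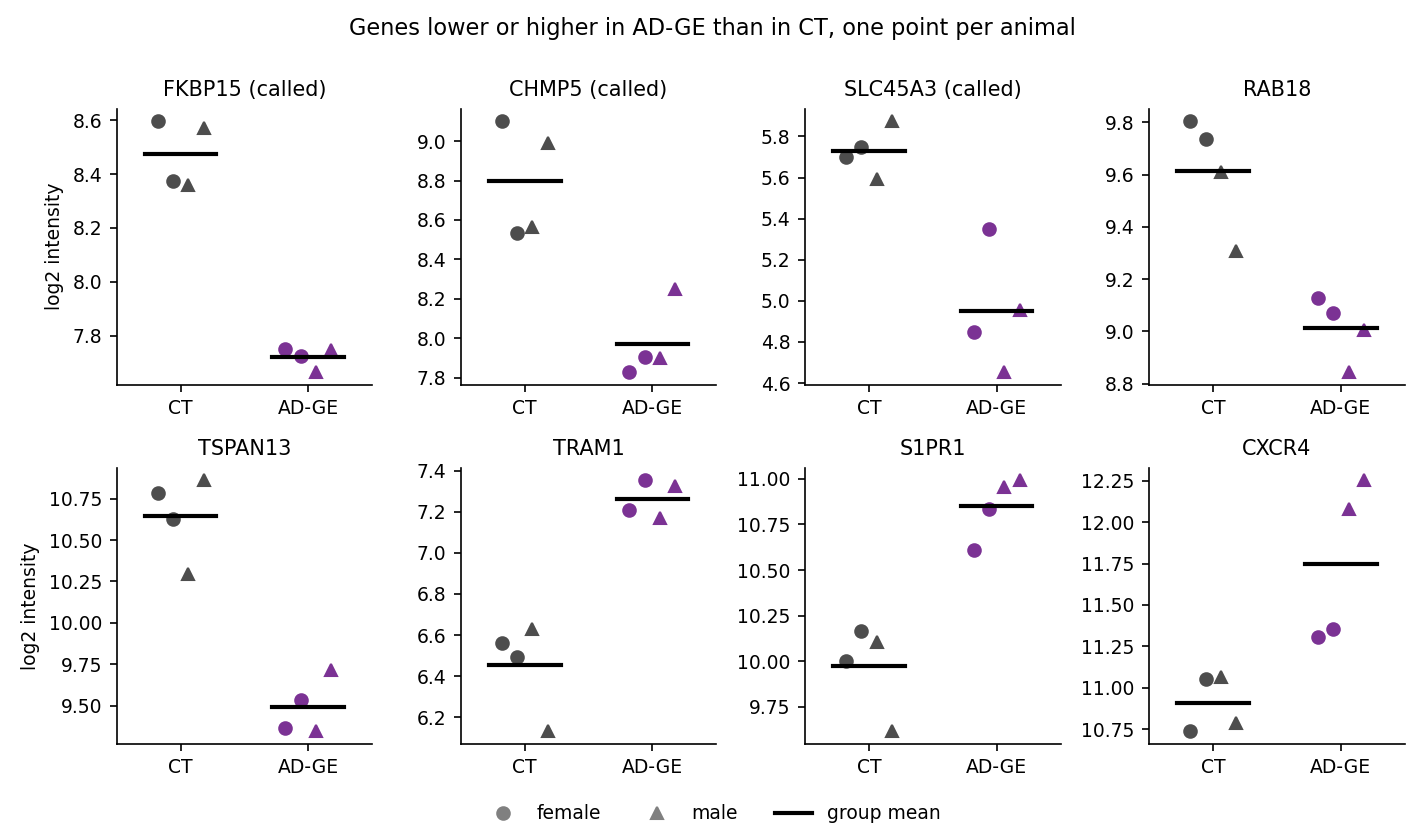
Log2 intensity of 8 genes in each CT and AD-GE animal, with circles for females, triangles for males and a bar at the group mean. In each gene the 4 AD-GE animals lie outside the range of the 4 CT animals, with TSPAN13 at 9.35 to 9.72 against 10.30 to 10.86 and S1PR1 at 10.61 to 10.99 against 9.62 to 10.16.

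The rest of the 24 genes named by rule had limma adjusted p-values between 0.0537 and 0.106 and are given as differences, not as calls. In the 12 lower genes the AD-GE animals all lay below the CT animals, and in 10 of the 12 higher genes they all lay above them. Both counts follow from choosing genes by p and can be set beside the 5.12% and 4.48% of all probe sets that did not overlap in the same directions.

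TSPAN13, a tetraspanin of the cell surface, had the largest difference among the named lower genes. It read 10.78, 10.63, 10.30 and 10.86 in CT and 9.36, 9.53, 9.35 and 9.72 in AD-GE, a difference of −1.15 (SE 0.23, limma adjusted p = 0.066). AP2B1, the beta subunit of the clathrin adaptor AP-2, read 7.92, 8.30, 8.0 and 8.33 in CT and 7.44, 7.30, 7.15 and 7.26 in AD-GE (−0.85). RAB18, a small GTPase of the endoplasmic reticulum and of lipid droplets, read 9.80, 9.74, 9.61 and 9.31 in CT and 9.13, 9.07, 8.84 and 9.01 in AD-GE (−0.60). These groups stood apart with no shared range. ZFYVE16, a FYVE domain protein of early endosomes, was nearly level within CT, at 8.19, 8.18, 8.14 and 8.20, and read 7.54, 7.70, 7.48 and 7.46 in AD-GE (−0.63). ATP6V1C1, a subunit of the proton pump that acidifies lysosomes, differed by −0.59, and the Golgi membrane protein TMEM167A by −0.69. BTK, the kinase downstream of the B cell receptor that myeloid cells also use, read 8.90, 9.10, 8.80 and 9.10 in CT and 8.39, 8.48, 8.17 and 8.32 in AD-GE (−0.63). ASRGL1, an asparaginase, differed by −0.69, and UGP2, which makes UDP-glucose, by −0.53.

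Among the higher genes were receptors of lymphocyte traffic. S1PR1, the sphingosine 1-phosphate receptor through which lymphocytes leave lymphoid organs, read 10.00, 10.16, 10.10 and 9.62 in CT and 10.61, 10.84, 10.95 and 10.99 in AD-GE. The difference was 0.88 (SE 0.18, limma adjusted p = 0.066), and its 3 probe sets ranged from 0.68 to 0.88. CXCR4, the receptor for the chemokine CXCL12, read 10.74, 11.05, 11.06 and 10.79 in CT and 11.31, 11.35, 12.08 and 12.25 in AD-GE (0.84, SE 0.21, limma adjusted p = 0.106). For CXCR4 the males of AD-GE lay above its females. RGS1, which dampens chemokine receptor signals in lymphocytes, read 5.22, 4.75, 5.64 and 4.90 in CT and 5.93, 6.07, 6.73 and 7.23 in AD-GE (1.36). TRAM1, a translocon component of the endoplasmic reticulum, read 6.56, 6.49, 6.63 and 6.13 in CT and 7.21, 7.35, 7.17 and 7.33 in AD-GE (0.81, SE 0.15, limma adjusted p = 0.0542), although its 4 probe sets ran from −0.17 to 0.81. Smaller differences were found for the mitochondrial ribosomal protein MRPL16 (0.63), the tyrosine phosphatase PTPN4 (0.58), the kinase TEC (0.65), the phosphatase subunit PPP2R5C (0.56) and, in single probe sets, for the ribosome assembly factor FCF1 (0.61) and C6H18orf21 (0.61). The brighter probe sets of FCF1 differed by −0.46 and −0.24, and that of C6H18orf21 by −0.0052. HILPDA, a lipid droplet protein that slows triglyceride breakdown, read 6.96, 7.42, 7.11 and 6.94 in CT and 7.37, 7.69, 7.99 and 8.10 in AD-GE (0.68), and its groups overlapped, as did those of TEC. The difference of 1.52 for the elongation factor EF1ALPHA was that of 1 of its 7 probe sets, and the others ran from −0.16 to 0.51.

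**Figure D2:**
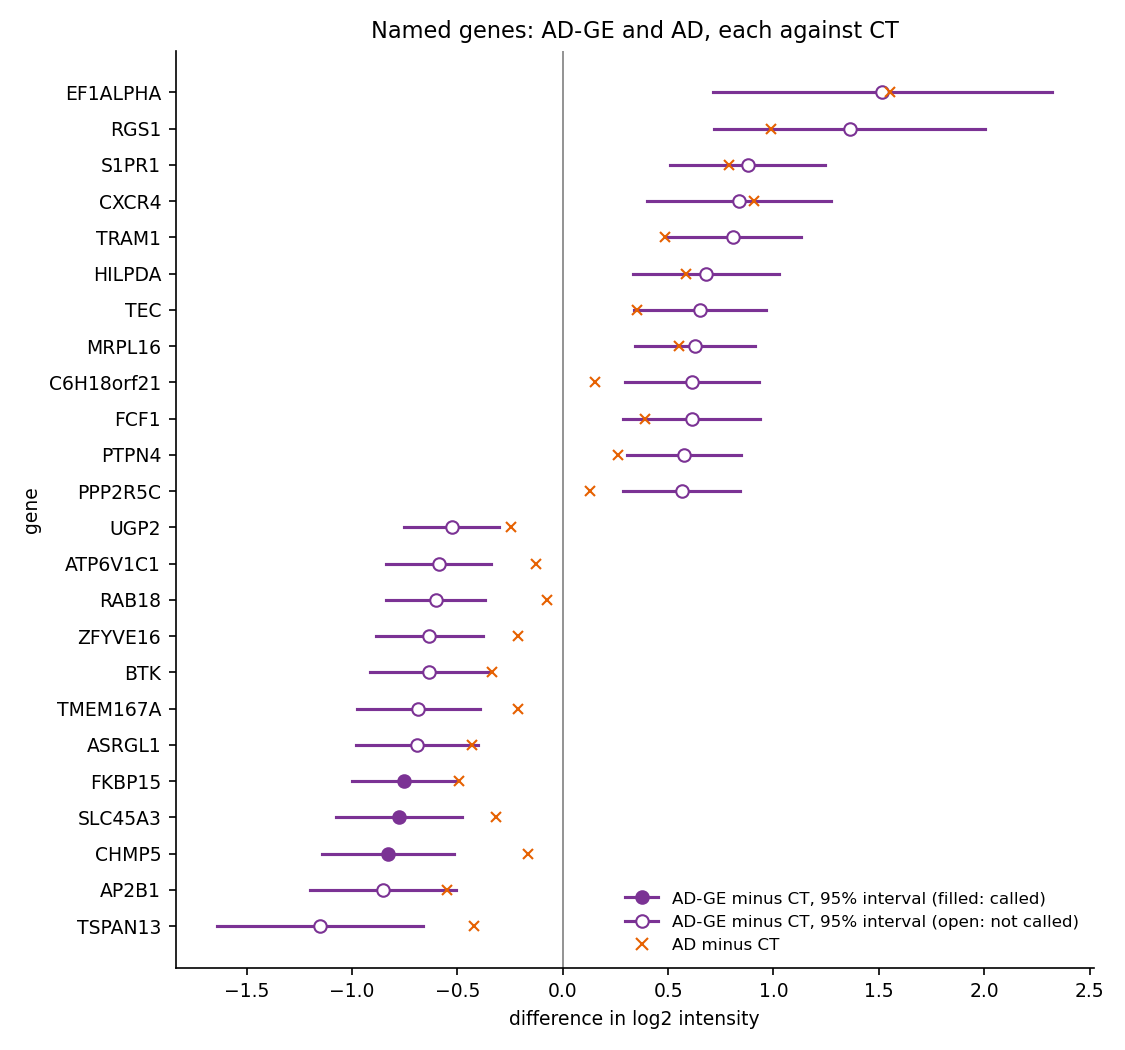
AD-GE minus CT in log2 intensity for the 24 named genes (circles, with 95% intervals, filled where called), and AD minus CT for the same genes (crosses). Both differences use the same CT animals. FKBP15, SLC45A3 and CHMP5 are the filled circles, and the crosses of RAB18 (−0.08) and CHMP5 (−0.16) lie closer to 0 than their circles.

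The AD animals differed from CT to a varying degree in these genes. Both sets of differences use the 4 CT animals, so their likeness is not a result, and the direct test is AD-GE against AD, in which limma called 0 probe sets (0.00%) with 0.458 as the lowest adjusted p, and 1097 passed an unadjusted p under 0.05. AD minus CT was −0.49 for FKBP15, −0.16 for CHMP5 and −0.32 for SLC45A3, and AD-GE minus AD was −0.26, −0.66 and −0.46. RAB18 stood at −0.08 for AD minus CT and −0.53 for AD-GE minus AD. The receptors had the other arrangement, with AD minus CT at 0.79 for S1PR1 and 0.91 for CXCR4 and AD-GE minus AD at 0.09 and −0.07. No probe set was called in AD, AD-GE-RES, AD-RES or CT-GE-RES against CT (0.00% each, by limma). The lowest adjusted p was 0.633, 0.939, 0.225 and 0.700 in that order, and 1149, 855, 1993 and 1224 probe sets passed an unadjusted p under 0.05.

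Gene lists give a wider view. The 30 lists, written from textbook knowledge, cover blood cell types, the handling of lipids, immune and stress responses and the basic machinery of the cell. Each gene was represented by its brightest probe set, which gave 6033 genes with a median difference of −0.02. Of these genes 2 were called (0.0332%), 300 were higher (4.97%) and 654 lower (10.8%) at an unadjusted p under 0.05, and 53.4% lay below 0. In 3.63% the AD-GE animals all lay above the CT animals, and in 7.29% all below them. The counts of each list are to be read against these shares. No member of any list was called in this form, so members are described by their values.

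Monocyte genes were mostly lower in AD-GE. Of 21 measured genes 19 lay below 0, with a median of −0.46, and 11 were lower at an unadjusted p under 0.05, against 10.8% of all genes. In 8 the animals did not overlap, with AD-GE the lower, against 7.29% of all genes. CEBPD, a transcription factor of myeloid cells, read 11.15, 11.15, 10.68 and 10.63 in CT and 10.00, 10.01, 10.26 and 10.17 in AD-GE, a difference of −0.80 (SE 0.17, limma adjusted p = 0.0747). Its 3 probe sets ran from −0.80 to 0.26, and 2 of the 3 were lower at an unadjusted p under 0.05. SPI1, which encodes the myeloid master regulator PU.1, read 8.87, 8.88, 8.52 and 8.29 in CT and 7.58, 7.66, 7.64 and 8.19 in AD-GE (−0.87, SE 0.27). For both genes the groups did not overlap, and the female CT animals lay above the males. TYROBP, the adaptor of myeloid activating receptors, read 12.55, 12.63, 12.27 and 12.42 in CT and 11.69, 11.62, 11.83 and 11.97 in AD-GE (−0.69). NCF1, a subunit of the NADPH oxidase, differed by −0.70, the actin-binding protein AIF1 by −0.83 and CCR2, the receptor that brings monocytes out of the marrow, by −0.46, each without overlap.

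Defining monocyte markers did not all follow. CD14, the lipopolysaccharide co-receptor, read 7.66, 5.63, 5.38 and 4.31 in CT and 5.13, 4.82, 5.98 and 6.69 in AD-GE, so that the groups overlapped widely (−0.09, SE 0.77). The scavenger receptor CD163 differed by −0.46 (SE 0.39) with overlap, the Fc receptor FCGR3A by 0.33 and the integrin ITGAM by 0.01. S100A9 and S100A8, calcium-binding proteins of monocytes and neutrophils, differed by −1.33 and −1.17 at limma adjusted p-values of 0.39 and 0.38.

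As a list, monocyte genes averaged 0.50, 0.15, 0.04 and 0.33 in CT animals 1 to 4 and −0.29, −0.54, −0.27 and −0.08 in AD-GE, relative to their mean over all 24 animals, without overlap. In AD the averages were 0.27, 0.39, 0.14 and 0.29, above every AD-GE animal, and 21 of 21 genes were lower in AD-GE than in AD (median −0.49). AD minus CT had a median of −0.01, AD-RES minus CT −0.57, AD-GE-RES minus CT −0.31 and CT-GE-RES minus CT −0.27. Without CT 4 the AD-GE minus CT median was −0.54 with 8 genes lower at an unadjusted p under 0.05, without CT 3 it was −0.74, and with a gene's probe sets averaged 6 passed. With the 3'/5' ratio in the model the median was −0.60 and 13 passed.

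Receptors of innate sensing overlap with that list in TLR2, TLR4 and CD14. Of 14 measured genes 11 lay below 0 (median −0.24). At an unadjusted p under 0.05 5 were lower and 1 was higher, against 10.8% and 4.97% of all genes. TLR4, the receptor for lipopolysaccharide and for saturated fat signals, read 9.28, 8.86, 8.85 and 8.81 in CT and 8.22, 7.91, 7.70 and 8.14 in AD-GE (−0.96, SE 0.27, limma adjusted p = 0.127). This was its brightest probe set. The 5 probe sets of TLR4 ran from −0.96 to 0.03, and 1 of the 5 was lower at an unadjusted p under 0.05. LY96 (MD-2), the partner of TLR4, differed by −0.62, TLR2 by −0.87 and CD180, a Toll-like receptor homologue of B cells and monocytes, by −0.74. CD180 read 6.20, 5.74, 5.81 and 5.97 in CT and 5.58, 5.38, 4.98 and 4.83 in AD-GE. In TLR4, LY96, TLR2 and CD180 the groups did not overlap, with AD-GE the lower, against 7.29% of all genes. CASP1, the protease that matures IL-1 beta and IL-18, read 11.42, 10.16, 9.92 and 10.85 in CT and 9.19, 9.04, 9.96 and 10.23 in AD-GE (−0.98) and overlapped. IRAK1, a kinase below these receptors, was higher, at 9.48, 9.34, 9.32 and 8.97 in CT and 9.67, 9.81, 9.67 and 9.75 in AD-GE (0.45). The list's median was −0.43 without CT 4 and −0.10 without AD-GE 2.

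Nearly all interferon-stimulated genes lay below 0, 22 of the 23 measured. Their median was −0.73 and 15 were lower at an unadjusted p under 0.05, against 10.8% of all genes. The groups overlapped in all but IFIT2, IFIT3 and PARP9, where AD-GE was the lower, against 7.29% of all genes. RSAD2, an antiviral enzyme known as viperin, read 9.78, 8.56, 8.35 and 10.32 in CT and 7.45, 7.23, 7.89 and 8.37 in AD-GE (−1.52, SE 0.36, limma adjusted p = 0.0991). IFIT2, which binds viral RNA, read 9.53, 8.60, 8.76 and 10.21 in CT and 7.46, 7.48, 7.92 and 8.38 in AD-GE (−1.47, SE 0.40). IFIT3 read 10.29, 9.18, 8.78 and 10.25 in CT and 8.22, 7.58, 7.88 and 8.61 in AD-GE (−1.55). In each of these, CT 1 and CT 4 were the high animals. OAS1, a sensor of double-stranded RNA, spread the most, at 10.25, 6.21, 5.05 and 8.72 in CT and 5.19, 3.30, 5.27 and 6.81 in AD-GE (−2.42, SE 0.95). The GTPase MX1 differed by −1.31, the transcription factor IRF7 by −1.08, the RNA sensor DDX58 by −0.90 and ISG15, the ubiquitin-like modifier, by −0.73 (limma adjusted p = 0.54).

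The list averaged 0.95, −0.18, −0.30 and 0.88 in CT animals 1 to 4 and −0.55, −0.86, −0.53 and −0.08 in AD-GE, so AD-GE 4 lay above CT 2 and CT 3. Without CT 1 the median was −0.43 and 8 genes passed an unadjusted p under 0.05, and without CT 3 it was −1.07 and 20 passed. Without CT 4 it was −0.65 and 12 passed. AD minus CT had a median of −0.14 with 17 genes below 0, and AD-GE minus AD a median of −0.85 with 21 below 0. AD-GE-RES, CT-GE-RES and AD-RES minus CT had medians of −0.56, −0.32 and −0.27.

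**Figure D3:**
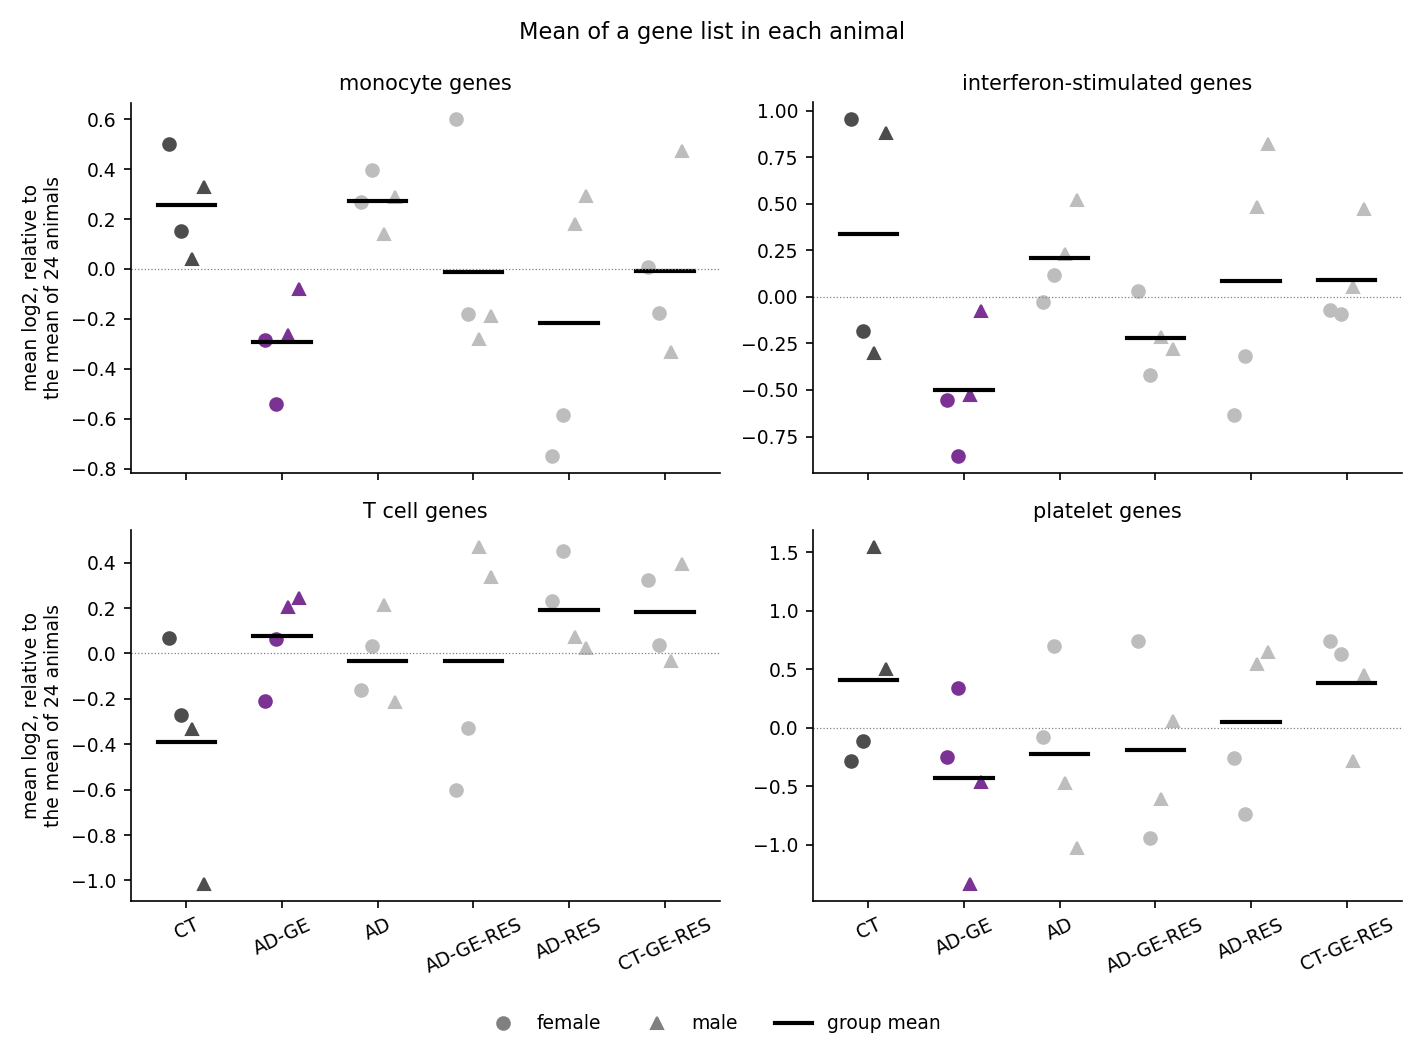
Mean log2 intensity of 4 gene lists in each of the 24 animals, relative to the mean of all animals, with circles for females, triangles for males and a bar at the group mean. Monocyte genes are −0.54 to −0.08 in AD-GE and 0.04 to 0.50 in CT, without overlap, while interferon-stimulated, T cell and platelet genes overlap between CT and AD-GE.

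Lymphocyte genes differed less evenly. Of 14 T cell genes 12 lay above 0, against 46.6% of all genes, with a median of 0.43. At an unadjusted p under 0.05 3 were higher, against 4.97% of all genes. In LEF1 and GATA3 the AD-GE animals all lay above CT, against 3.63% of all genes. LEF1, a transcription factor of naive T cells, read 10.48, 10.91, 10.54 and 10.40 in CT and 11.07, 11.01, 10.98 and 11.02 in AD-GE (0.44, SE 0.12), without overlap. IL7R, the receptor that keeps naive T cells alive, read 10.03, 9.76, 9.84 and 8.41 in CT and 9.58, 10.27, 11.01 and 10.96 in AD-GE (0.94), with CT 4 low. CD3G, a chain of the T cell receptor complex, differed by 0.56, its partner CD3E by 0.15 and the zeta chain CD247 by 1.14. T cell genes averaged −1.01 in CT 4 and −0.33 to 0.07 in the other CT animals, and without CT 4 the median was 0.21 with 1 gene passing an unadjusted p under 0.05. With the 3'/5' ratio in the model it was 0.26 with 4 passing. The CD8 T cell and NK cell list (10 genes) had a median of 0.10, which was 0.0019 without CT 4, with FCER1G, a signalling chain also carried by monocytes, at −0.62 and the granzyme GZMH at 0.63.

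All 6 B cell genes lay below 0 (median −0.15). BLNK, the linker between the B cell receptor and BTK, read 9.64, 9.79, 9.53 and 9.90 in CT and 8.93, 9.14, 8.75 and 8.92 in AD-GE, a difference of −0.78 (limma adjusted p = 0.119) without overlap. CD79B, the receptor's signalling chain, differed by −0.16, SPIB by −0.30 and CD40 by −0.13, all with overlap. The 3 dendritic cell genes measured, IRF8, XCR1 and CCR7, differed by −0.23, 0.08 and 0.08.

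Platelet genes, which show platelets carried into the preparation, had the lowest list median, −0.96, with 12 of 13 below 0. At an unadjusted p under 0.05 4 were lower, against 10.8% of all genes. P2RY12, the ADP receptor of platelets, read 7.12, 6.80, 7.17 and 6.27 in CT and 6.41, 6.01, 5.31 and 5.68 in AD-GE (−0.99), and VWF, the clotting protein stored in platelet granules, differed by −1.66. The list averaged −0.28, −0.12, 1.55 and 0.50 in CT and −0.25, 0.34, −1.34 and −0.47 in AD-GE, so that the males stood apart and the females did not. Its median was −0.42 without CT 3 and −0.54 without AD-GE 3. Neutrophil genes (12) had a median of −0.37, which was 0.03 without CT 4, and erythroid genes (10) a median of −0.14, which was 0.14 without CT 4. The part of platelets, neutrophils or red cells in the differences of other genes was not tested.

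**Figure D4:**
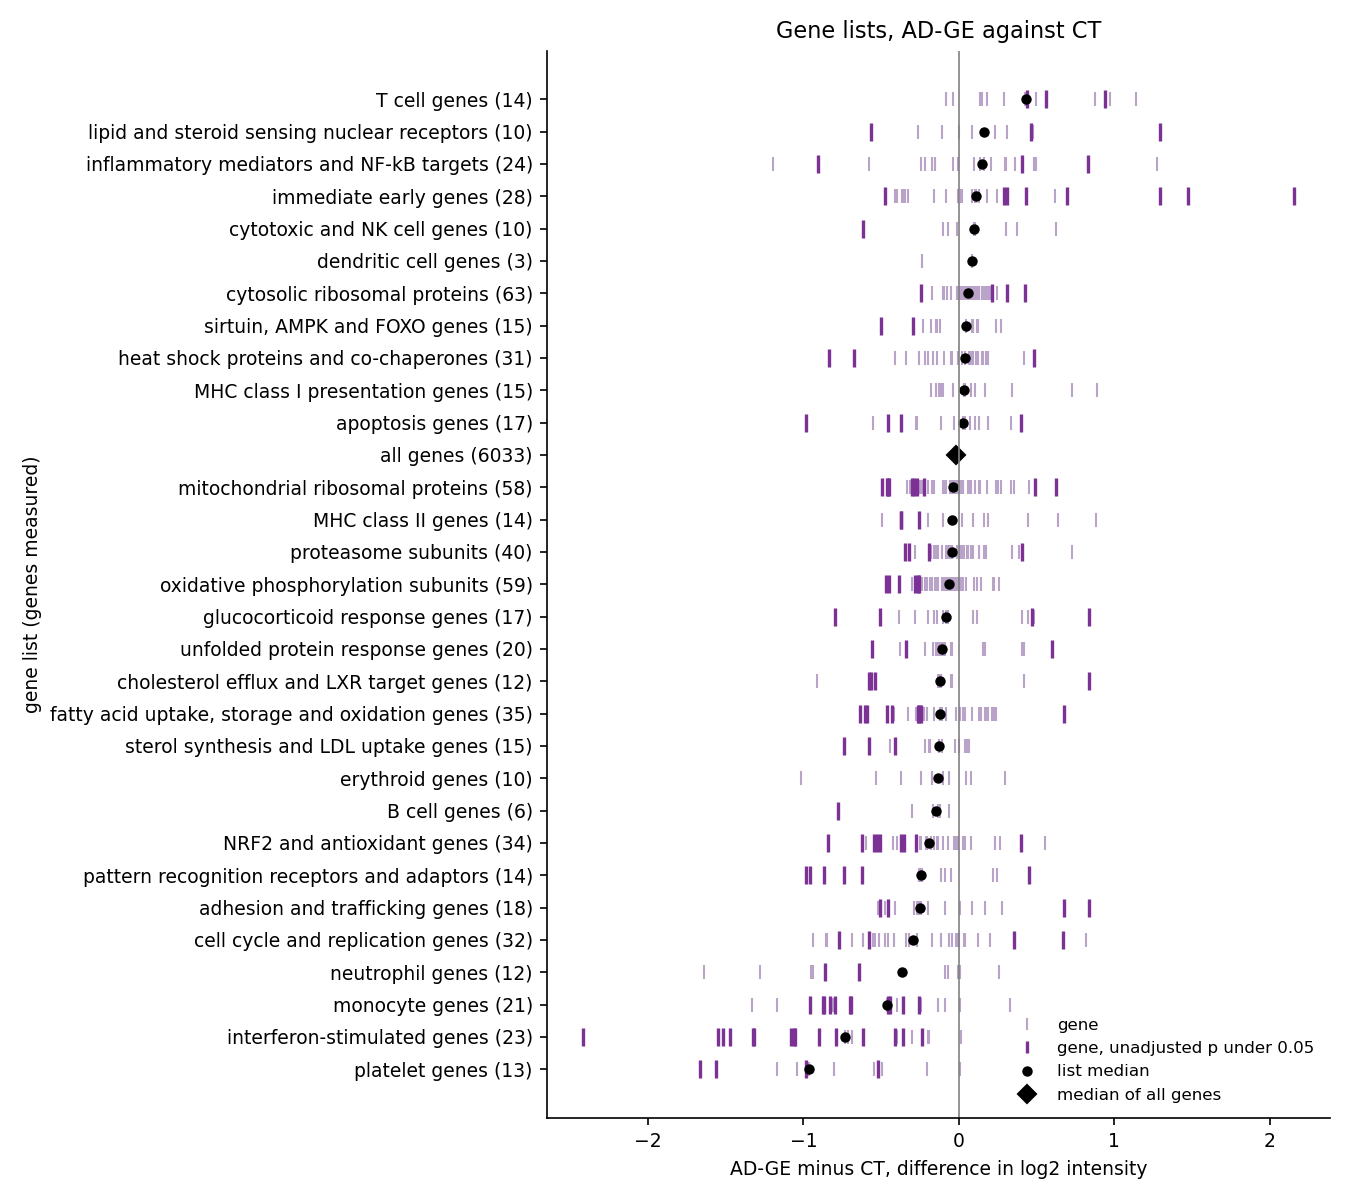
AD-GE minus CT for every measured gene of 30 lists (ticks, dark at an unadjusted p under 0.05), with the list median (dots) and the median of all 6033 genes (diamond, −0.02). Platelet, interferon-stimulated and monocyte genes have the lowest medians (−0.96, −0.73 and −0.46) and T cell genes the highest (0.43).

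Genes of sterol handling tended below 0 by small amounts. In the list of sterol synthesis and LDL uptake 10 of 15 genes lay below 0 (median −0.13). At an unadjusted p under 0.05 3 were lower, against 10.8% of all genes. HMGCS1, which makes HMG-CoA for cholesterol synthesis, read 6.43, 6.74, 6.43 and 6.12 in CT and 5.84, 5.95, 5.72 and 5.27 in AD-GE (−0.74, SE 0.26, limma adjusted p = 0.203), without overlap. SQLE and FDFT1, enzymes further down the same route, differed by −0.58 and −0.41 with overlap, and MSMO1 by −0.02. AD minus CT for HMGCS1 was −0.20. The list median ran from −0.22 without CT 4 to −0.04 without CT 2.

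Among 12 genes of cholesterol efflux and LXR targets 10 lay below 0 (median −0.12). At an unadjusted p under 0.05 3 were lower and 1 was higher, against 10.8% and 4.97% of all genes. NPC1, which exports cholesterol from lysosomes, read 8.21, 8.01, 7.95 and 8.36 in CT and 7.57, 7.69, 7.29 and 7.68 in AD-GE (−0.58, limma adjusted p = 0.127). NR1H3, the receptor LXR alpha, read 7.27, 7.14, 6.82 and 7.04 in CT and 6.13, 6.37, 6.70 and 6.81 in AD-GE (−0.57), and the HDL receptor SCARB1 differed by −0.54. In these the groups did not overlap. MYLIP, the LXR target that degrades the LDL receptor, ran the other way (0.84, limma adjusted p = 0.154). It read 9.16, 9.80, 10.10 and 9.98 in CT and 10.10, 10.67, 10.75 and 10.86 in AD-GE. Its groups did not overlap, but their nearest values both round to 10.10. ABCA1, the cholesterol exporter, read 7.32, 7.05, 6.91 and 6.24 in CT and 7.04, 7.32, 7.46 and 7.37 in AD-GE (0.42, SE 0.31), with overlap. Its AD minus CT difference was −0.59 and its AD-GE minus AD difference 1.01. The list median was −0.28 without CT 4.

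Of 35 genes for uptake, storage and oxidation of fatty acids 21 lay below 0 (median −0.12). At an unadjusted p under 0.05 8 were lower and 1, HILPDA, was higher, against 10.8% and 4.97% of all genes. In 8 the AD-GE animals all lay below CT, against 7.29% of all genes. ACSL1, which activates long-chain fatty acids, read 8.38, 8.55, 7.94 and 8.36 in CT and 7.71, 7.66, 7.69 and 7.81 in AD-GE (−0.59, limma adjusted p = 0.146), and the mitochondrial carrier UCP2 differed by −0.61. CPT1A, the gate of fatty acids into mitochondria, differed by 0.17 and the lipid droplet coat PLIN2 by 0.13. In the list of lipid and steroid receptors NR4A2, an orphan receptor that cell activation induces, read 6.14, 5.84, 5.74 and 5.64 in CT and 6.84, 7.25, 6.81 and 7.63 in AD-GE (1.29, limma adjusted p = 0.216), without overlap, and RORA differed by 0.46.

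Inflammatory mediators did not share a direction. Of 24 genes 14 lay above 0 (median 0.15, and 0.02 without CT 4). At an unadjusted p under 0.05 2 were higher and 1 was lower, against 4.97% and 10.8% of all genes. CCL4, a chemokine of activated leukocytes, read 8.47, 8.49, 8.34 and 8.32 in CT and 9.10, 9.09, 9.11 and 9.64 in AD-GE (0.83, limma adjusted p = 0.334). IL18, an interleukin of the inflammasome, read 8.88, 8.68, 8.46 and 8.80 in CT and 7.07, 7.09, 7.47 and 8.39 in AD-GE (−1.20, limma adjusted p = 0.346). The groups did not overlap in either, and in both AD-GE 4 was the highest of its group. LTB, a cytokine of lymphocytes, differed by 0.41 and the death ligand TNFSF10 by −0.90. IL1B (0.83), CXCL8 (0.50), NFKBIA (0.48), TNF (0.30) and PTGS2 (−0.17) overlapped between the groups. Of 28 immediate early genes, which answer cell activation and handling within minutes, 18 lay above 0 (median 0.11). At an unadjusted p under 0.05 7 were higher, against 4.97% of all genes. RGS1 by its brightest probe set read 7.26, 5.55, 7.59 and 4.29 in CT and 7.43, 7.41, 9.06 and 9.43 in AD-GE (2.16). The count of 7 was 3 without CT 3 or AD-GE 3, 4 without CT 4 or with the 3'/5' ratio in the model, and 2 without AD-GE 4.

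In the mixed list of NRF2 and antioxidant genes 26 of 34 lay below 0 (median −0.19). At an unadjusted p under 0.05 8 were lower and 1 was higher, against 10.8% and 4.97% of all genes. TKT, a pentose phosphate enzyme, read 9.75, 10.01, 9.53 and 10.23 in CT and 9.44, 9.13, 9.44 and 9.34 in AD-GE (−0.54, limma adjusted p = 0.125). SOD2, the mitochondrial superoxide dismutase, read 10.83, 11.0, 10.53 and 10.77 in CT and 9.78, 10.07, 10.32 and 10.48 in AD-GE (−0.62), and HMOX1, which degrades haem, read 8.95, 9.23, 8.83 and 9.0 against 8.56, 7.69, 8.27 and 8.13 (−0.84). In these 3 the groups did not overlap. SOD1, the cytosolic dismutase, was higher by 0.40, also without overlap. The list median was −0.12 without CT 3, its value nearest 0 among the alternatives.

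Among chaperones (31 genes, median 0.04, and −0.0041 without CT 4) HSPA6, an inducible member of the HSP70 family, read 7.41, 7.55, 7.66 and 7.28 in CT and 6.86, 6.71, 6.75 and 6.23 in AD-GE (−0.84, SE 0.19, limma adjusted p = 0.0779). DNAJA4, an HSP70 co-chaperone, read 5.92, 5.82, 6.13 and 5.88 in CT and 6.33, 6.56, 6.25 and 6.55 in AD-GE (0.49), with AD minus CT at −0.27. Both were without overlap. The 15 sirtuin, AMPK and FOXO genes, which resveratrol research often follows, had a median of 0.05 (−0.08 without CT 4 and −0.0018 with the ratio in the model). Of these 2 were lower at an unadjusted p under 0.05, against 10.8% of all genes. NAMPT, which makes the NAD that sirtuins consume, read 8.47, 8.50, 8.51 and 8.71 in CT and 7.95, 8.10, 8.02 and 8.13 in AD-GE (−0.50, limma adjusted p = 0.117), and SIRT6 differed by −0.30. The 17 apoptosis genes had a median of 0.03, which was −0.16 without CT 4 and −0.11 with the ratio in the model. FADD, the adaptor of death receptors, read 7.46, 7.66, 7.22 and 7.36 in CT and 7.16, 7.15, 6.67 and 6.88 in AD-GE (−0.46, limma adjusted p = 0.0913), and BID differed by −0.37. ASNS, the asparagine synthetase of the unfolded protein response, differed by −0.56 without overlap. Among adhesion genes (18, median −0.25) ICAM2, a ligand of leukocyte integrins, read 8.53, 8.50, 8.40 and 8.31 in CT and 7.74, 7.62, 8.12 and 8.24 in AD-GE (−0.51, limma adjusted p = 0.15). Glucocorticoid response genes (17) had a median of −0.08, which was 0.02 without AD-GE 1, with the glutamine synthetase GLUL at −0.51.

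The sexes were then taken apart in a model with 12 diet and sex groups, in which each difference rests on 2 animals against 2 and the spread comes from all groups. In females 159 probe sets were called (0.883%), 18 higher (0.100%) and 141 lower (0.783%). In males 394 were called (2.19%), 218 higher (1.21%) and 176 lower (0.978%). In both sexes 11 were called, 10 of them with the same sign, among them FKBP15 (−0.75 in females and −0.76 in males), TSPAN13 (−1.26 and −1.05) and ACVR1B, a receptor of activin (−0.91 and −0.80). Genes of this paragraph and the next that the rule did not name were chosen after their values were seen.

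In females 2 of the 21 monocyte genes, CEBPD and TYROBP, were called lower, against 62 of all 6033 genes. Of 18 adhesion genes 2 were also called lower. By its brightest probe set CEBPD fell by 1.15 in females (SE 0.16, limma adjusted p = 0.0055), and differed by −0.45 in males. TYROBP fell by 0.94, SIRPA, the myeloid receptor for CD47, by 1.17, and GRN, the growth factor granulin of macrophages, by 1.20. CTSB, a lysosomal protease, read 12.67 and 12.72 in the CT females and 12.05 and 12.07 in the AD-GE females. IFNGR1, a chain of the interferon gamma receptor, read 9.90 and 10.31 in CT and 8.75 and 8.89 in AD-GE. Males rose in S1PR1 (0.95), CXCR4 (1.24), IL7R (1.85, limma adjusted p = 0.022) and CD2 (2.50), and fell in VWF (−3.58) and CAVIN2 (−3.35), a platelet membrane protein. The CT males include CT 4, the array that stood apart. With the 3'/5' ratio in the model 14 probe sets rose in males, not 218. Whether the male calls named here held with the ratio or without CT 4 is not given. Of the 141 probe sets that fell in females 117 (83.0%) had the same sign in males, with a median of −0.31 there, against 51.0% of all probe sets. Of the 218 that rose in males 111 (50.9%) had the same sign in females.

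The difference between the sexes was itself called in 4 genes (0.0222%). KMO, the kynurenine hydroxylase of tryptophan breakdown, read 8.45 and 8.87 in CT females and 5.95 and 6.26 in AD-GE females, while males read 6.73 and 6.66 in CT and 6.41 and 6.81 in AD-GE. The female minus male difference was −2.47 (SE 0.34, limma adjusted p = 0.0184). PSAT1, an enzyme of serine synthesis, read 4.88 and 4.94 in CT females, 4.94 and 5.23 in AD-GE females, 7.04 and 7.03 in CT males and 5.20 and 5.05 in AD-GE males (2.08, limma adjusted p = 0.026). SUPT3H, a subunit of the SAGA complex, fell by 0.60 in females and rose by 0.93 in males (−1.53, limma adjusted p = 0.0069). MTMR6, a phosphoinositide phosphatase, fell by 1.22 in females and differed by 0.70 in males (−1.93, limma adjusted p = 0.028). In all 4 the CT females and CT males stood apart. In all 4 the means of the sexes lay closer together in AD-GE than in CT, though only slightly in SUPT3H. In KMO, MTMR6 and SUPT3H the females lay above the males in CT and below them in AD-GE.

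The counts by sex were not stable. With only the 8 arrays of AD-GE and CT in the model 0 probe sets were called in females, 1 in males and 0 for the difference. With the 3'/5' ratio in the model the counts were 157 in females, 164 in males, 14 of them higher, and 1 for the difference. With array weights 395 were called in females, 311 in males and 6 for the difference, so that the order of the sexes turned. Leaving out 1 animal gave 5 to 170 in females, with 5 without CT 1, 19 without CT 2, 9 without AD-GE 1 and 25 without AD-GE 2. In males it gave 1690 without CT 3, 125 without CT 4, 0 without AD-GE 3 and 7 without AD-GE 4. The difference between the sexes was called in 824 without CT 3, 22 without CT 4, 10 without CT 2, 2 without AD-GE 1, AD-GE 3 or AD-GE 4 in turn, and 0 without AD-GE 2.

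**Figure D5:**
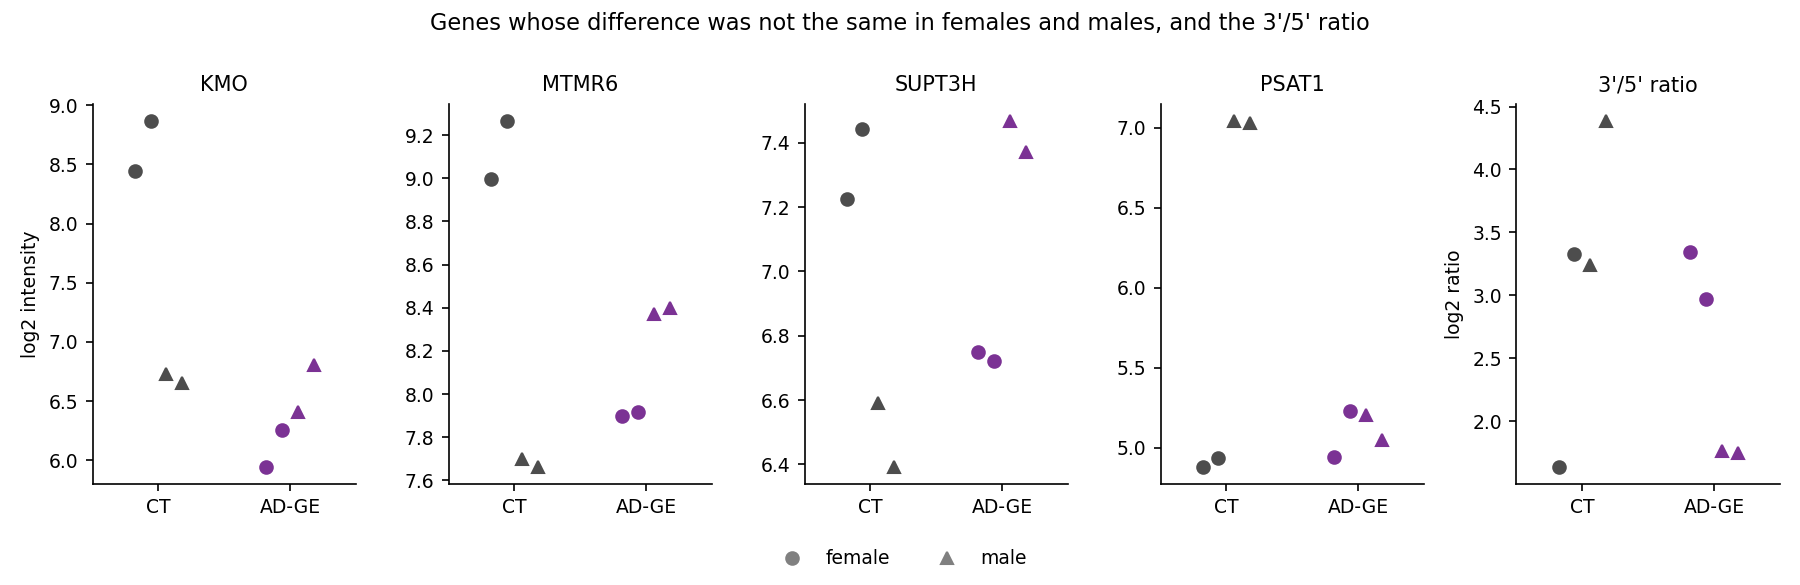
Log2 intensity of KMO, MTMR6, SUPT3H and PSAT1, and the log2 3'/5' ratio of control transcripts, in each CT and AD-GE animal, with circles for females and triangles for males. CT males have the higher PSAT1 (7.03 and 7.04) and CT females the higher KMO (8.45 and 8.87), and the ratio is 1.75 and 1.77 in AD-GE males against 3.24 and 4.39 in CT males.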

How the data were processed

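Peripheral blood mononuclear cells of 24 pigs were isolated on a density gradient and their RNA was hybridised, 1 animal per array, to Affymetrix porcine arrays, per the labels' protocols. The authors deposited 1 linear intensity per probe set and array, with array medians of 38.6 to 41.2. The submitters' processing notes name RMA and GCOS, with roles and versions not given in the sources used here. Intensities were converted to log2 here. Of 23999 probe sets that were not controls, the lowest 25% by mean (under 3.57) were left out, leaving 17999, of which 8540 had 1 gene symbol in the platform's annotation, 168 several and 9291 none. Genome positions and sequences were not used here.

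A model with 6 group means and sex was fitted with limma 3.58.1 in R 4.3.3 (17 residual and 3.60 prior degrees of freedom), and 12 diet and sex groups gave the contrasts by sex (12 and 3.93). The 4 animals per group limit the precision, and 89.4% of differences had a 95% interval within 2-fold of 0. On simulated data the method called 26% of changes of 0.5 and 90% of changes of 1 (log2, 50 probe sets each). The simulated noise was independent between probe sets and held no outlying array. The simulation also held many changes, of up to 2, and many true changes make the adjusted threshold easier to pass. In the real data 9 probe sets were called, so these shares need not hold for the real arrays and may be too high. Alternatives changed the sex term, arrays, filter, normalization, weights, prior, 3'/5' covariate, probe set rule and animals, one at a time. The rule named in each direction 12 genes with 1 symbol, called genes first by size and then by smallest p, then 3 genes of smallest p from each list and a panel of 37 genes, of which 31 were measured. Members and lists were chosen with earlier results of these data known.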

Additional observations from a re-analysis of the deposited data

Results flagged for a closer look

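Among 122 group values, each of 4 animals, 6 had 1 animal set apart from the other 3 by a gap beyond Dixon's critical value for the share of the group's range, which chance gives in about 1 of 20 groups. The unnamed probe set Ssc.4622.1.S1_at, which fell in AD-GE, read 6.93 in AD-GE 4 and 6.57 to 6.61 in the other AD-GE animals. C6H18orf21 read 4.68 in CT 4 against 5.29 to 5.38 in the other CT animals, and 6.09 in AD-GE 2 against 5.65 to 5.70 in the other AD-GE animals. UGP2 read 7.66 in AD-GE 3 against 7.78 to 7.80. The neutrophil list averaged 1.43 in CT 4 against −0.11 to 0.06, and the list of inflammatory mediators averaged 0.38 in AD-GE 4 against −0.15 to −0.13.

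In 4 genes the AD-GE minus CT difference was not the same in females and males by the interaction term in limma. The female minus male value was −2.47 for KMO, −1.93 for MTMR6, −1.53 for SUPT3H and 2.08 for PSAT1. Each rests on 2 animals of a sex per group.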

How the results depend on the processing

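Under 17 alternatives 122 of 132 genes and probe sets followed kept the sign of their AD-GE minus CT difference. The count of called probe sets, 9, was 0 with quantile normalization repeated and 0 with the 3'/5' ratio as a covariate, 119 with array weights, 159 within females only and 394 within males only, and 0 to 8 when 1 animal was left out. It was 7 to 13 under the other alternatives of the model, filter and centring, but these were not always the same probe sets. With only the 8 arrays of AD-GE and CT 10 were called, of which 1 was among the 9. With the lowest 50% left out 13 were called, of which 6 were among the 9, and only these 6 of the 9 were tested. Centring each array on its median changed the split at an unadjusted p under 0.05 from 1212 higher and 1423 lower to 936 and 1668. The difference between the sexes, called in 4 probe sets, was called in 1 with the ratio as a covariate, in 0 with only the 8 arrays, and in 0 to 824 when 1 animal was left out.

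The sign turned in 10 genes when 1 animal was left out, with ranges of −0.27 to 0.18 for MSMO1, −0.0021 to 0.35 for CPT1A, −0.22 to 0.94 for CXCL8, −0.44 to 0.15 for PTGS2, −0.0635 to 0.082 for CAT, −0.27 to 0.10 for FKBP5, −0.32 to 0.037 for SGK1, −0.65 to 0.65 for CD14, −0.0098 to 0.35 for CD3E and −0.017 to 0.23 for CCR7. CAT was 0.0022 with quantile normalization repeated, and with the ratio as a covariate FKBP5 was 0.061 and CCR7 −0.077. The cause of these changes was not tested. No paired analysis was possible because the animal numbers in the labels are not shared between groups.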

Other observations

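Ribosomal, respiratory and proteasome genes had list medians close to that of all genes. Of 63 cytosolic ribosomal protein genes 53 were above 0 (median 0.06), with RPL5 at 0.31, and in 10 the AD-GE animals all lay above CT, against 3.63% of all genes. Of 59 subunits of oxidative phosphorylation 46 were below 0 (median −0.06), with NDUFV2 of complex I at −0.39. Mitochondrial ribosomal proteins (58, median −0.04), proteasome subunits (40, −0.05) and MHC class I presentation genes (15, 0.04) also had medians near 0, and that of MHC class I was −0.04 without CT 4 and −0.02 when the model held the 3'/5' ratio. Without CT 2 the medians of mitochondrial ribosomal proteins and proteasome subunits were 0.03 and 0.01. MHC class II genes had a median of −0.04 that was −0.60 in females and 0.69 in males, a difference that was not tested for the list. Over all animals it was 0.19 without CT 1, −0.19 without CT 4 and −0.20 with the ratio in the model. Cell cycle genes had a median of −0.30, with 24 of 32 below 0, which was −0.09 without CT 4. Their members included the kinase inhibitor CDKN1B at 0.67 and the phosphatase CDKN3 at −0.77.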
